A study of Mus musculus with 12 samples.

Results

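The genes described here encode 10 subunits and partners of activator protein 1 (AP-1), namely Fos, Fosb, Fosl1, Fosl2, Jun, Junb, Jund, Atf3, Batf3 and Maff. Their accessible chromatin was followed by ATAC-seq, which maps the DNA that the transposase Tn5 can reach and tag. A window of the authors' table belonged to a gene when it overlapped the gene body (GENCODE M21, mm10) or the 25 kb on either side. This gave 117 of the 176680 windows in the table, between 9 and 14 per gene, and no window belonged to more than 1 of the genes. The rule uses neither the levels nor their differences, but the genes were chosen with earlier results of these data known.

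AP-1 is a dimer of basic leucine zipper proteins. Fos proteins cannot pair with each other and need a Jun partner, whereas Jun proteins also pair among themselves, and the dimers bind the palindrome TGAGTCA. Many of these genes are immediate early genes, which serum and growth factors switch on within minutes through serum response factor and CREB family proteins, and AP-1 sites are abundant in the distal enhancers of fibroblasts.

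The cells were wild-type C57BL/6N mouse embryonic fibroblasts (MEFs), primary cells transduced with lentivirus and collected on day 2 of doxycycline. Of the 12 libraries in 4 groups of 3, only 4in1_GFP_OE and 4in1_Prox1_OE enter here. Both received the transactivator rtTA and the 4in1 vector, a set of transcription factors used to reprogram fibroblasts towards induced hepatocytes. One received tetO-GFP in addition and the other tetO-FLAG-mmProx1, an inducible, FLAG-tagged mouse Prox1, which encodes a homeodomain transcription factor of hepatocytes. The MEF group (rtTA alone) and the Prox1_OE group (rtTA and Prox1) were not analysed here. Transduction need not reach every cell, and the share that took up each vector is not given in the sources used here. In such bulk samples, fewer cells with an open window and less opening per cell cannot be told apart.

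The levels are the authors' group means of normalized reads per window, and the table gives no value per library. No SD or test could therefore be computed here, and the authors' own p-values and false discovery rates were not used. No value below thus carries an SD, n or test. Every difference is a description of 2 group means, each taken over 3 libraries. Differences are given as 4in1_Prox1_OE minus 4in1_GFP_OE on the log2 scale, so that -1 stands for a halved level. The depth of each library is unknown. Of the 12 fibroblast marker genes looked up, 12 had a window within 1 kb of a start site, against 1 of 6 hepatocyte markers, where Alb, Ttr, Apoa1, Serpina1a and Hnf4a had none. Such a window was also found at 4 of 4 neuron, 4 of 4 epithelial, 3 of 4 endothelial and 2 of 4 leukocyte markers. Its presence therefore does not by itself mark a cell type.

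Across the AP-1 subunit loci most windows had a lower mean with Prox1, as did most windows of the table. The median difference was -0.24 over the 117 windows and -0.42 over all windows. A lower value was found in 91 member windows (77.8%), against 72.3% of all windows. A difference of -1 or below was found in 24 (20.5%), against 24.4% of all, and a difference of 1 or above in 5 (4.27%), against 8.33% of all. These shares lay near those of the table, and whether they differ was not tested. With the median of all windows set to 0, the split turned from 24 lower and 5 higher to 12 lower and 9 higher, and the median of the member windows came to 0.18. The shares were then 10.3% lower, against 8.64% of all windows, and 7.69% higher, against 13.4%. For part of the values below, the standing among windows of similar level is therefore also given.

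The AP-1 loci held many strong windows, and the difference varied with level in the table. All windows were ranked by their mean level and divided into 10 groups (deciles) of 17668, and 42 of the 117 member windows (35.9%) fell in the top decile. Its median difference over all windows was -0.26, and it was -0.62 in the seventh decile, with 9.86% and 32.1% of windows lower by at least 1. Of the member windows, 50 (42.7%) lay below the median of their decile, and the median distance from it was 0.09.

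**Figure D1:**
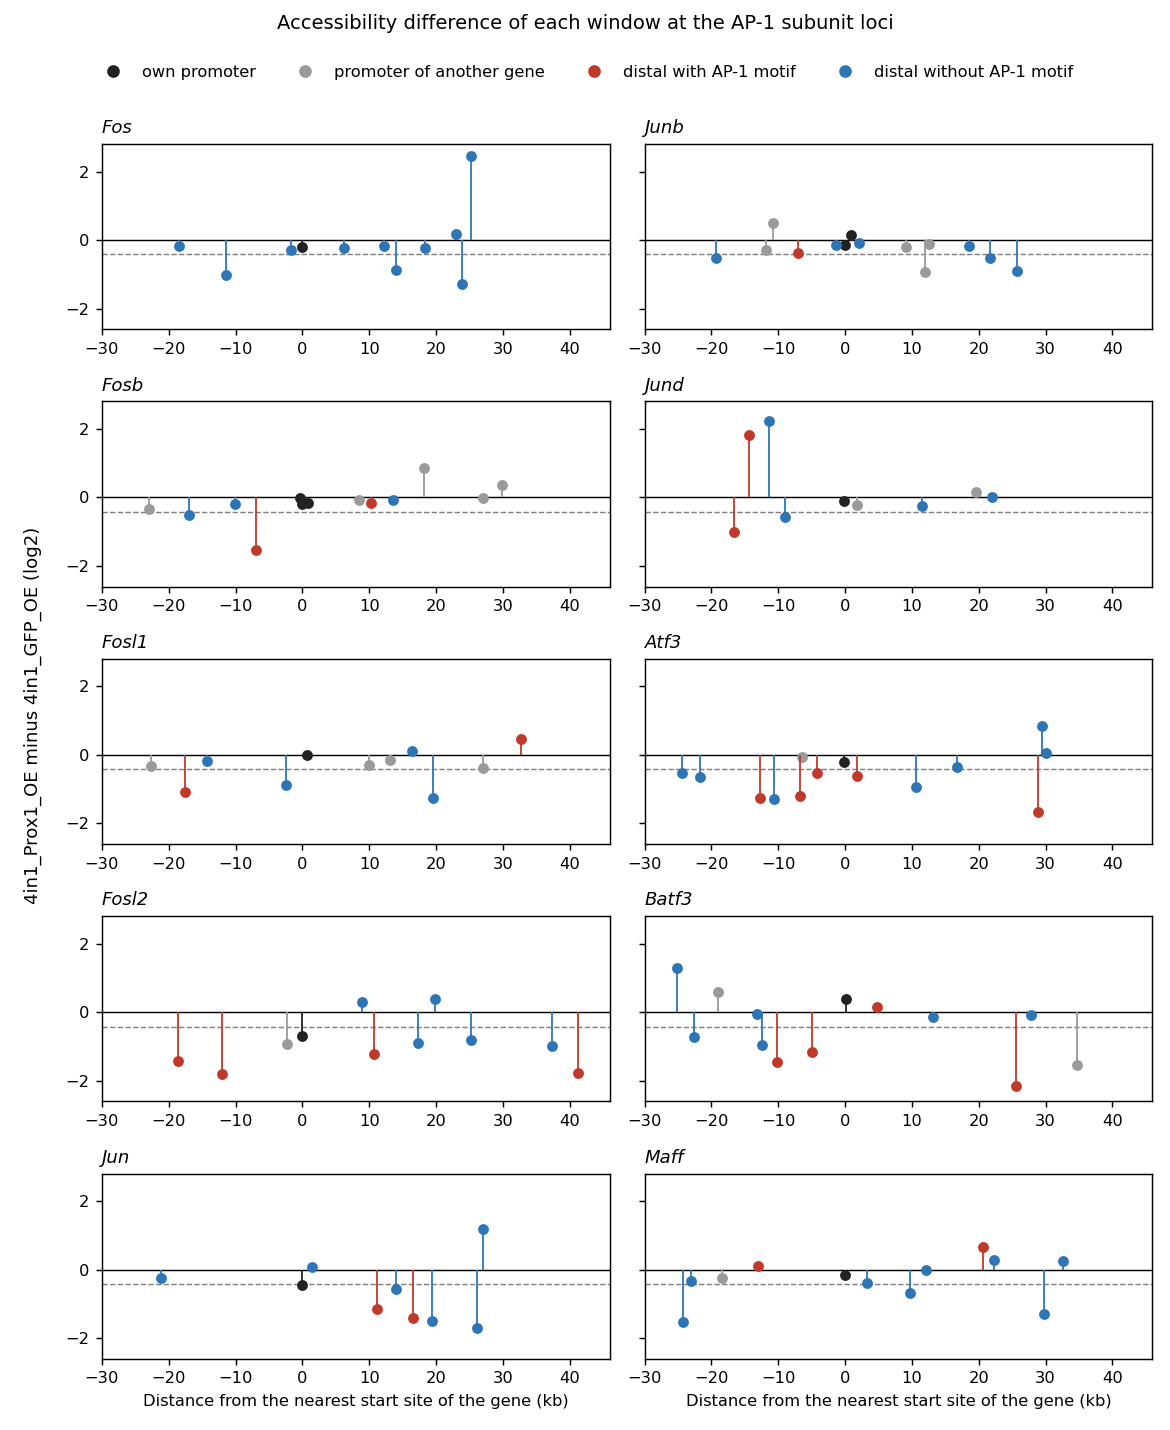
Each panel is 1 gene and each point 1 window, placed by its distance in kb from the nearest annotated start site of the gene (negative, upstream) and by its difference, 4in1_Prox1_OE minus 4in1_GFP_OE in log2 of the authors' group means. Colours mark promoters (within 1 kb of a start site) and distal windows with and without the AP-1 motif, the solid line is 0 and the dashed line the median of all windows (-0.42), so points between the lines are low in value but not relative to the table. The lowest point is at Batf3 (-2.14) and the highest at Fos (2.44).

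The windows lower by at least 1 sat mostly away from the start sites. A lower value of any size was about as frequent within 1 kb of a start site (79.4%) as beyond it (77.1%). Of the 24 windows lower by at least 1, 21 (87.5%) lay more than 10 kb from a start site of the gene they were assigned to, as did 82 of all 117 windows (70.1%). Among the 25 windows within 5 kb of a start site, 1 was lower by at least 1, at Batf3. Split at 1 kb from any start site, 2.94% of member windows within that distance and 27.7% of those beyond it were lower by at least 1, beside 8.26% and 26.7% in the table. All loci but Junb had at least 1 window lower by that much (75.8% of protein-coding genes with at least 5 windows did), whereas the 5 windows higher by at least 1 lay at Fos, Jun, Jund and Batf3, 4 of 10 loci against 49.1% of those genes.

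Among the Fos family, Fos (ENSMUSG00000021250.13, chr12:85473890-85477273, plus strand) encodes the founding member of the group and a textbook immediate early gene. Its 11 windows had a median difference of -0.22, which placed it at percentile 60.3 among the 15965 protein-coding genes with at least 5 windows (the percentage of them with a lower median). The promoter window (chr12:85473739-85473939) had a mean of 649 normalized reads in 4in1_GFP_OE and 561 in 4in1_Prox1_OE, which differ by -0.21. Windows of the top decile had a median of -0.26, so the Fos promoter stood near the middle of windows as strong as itself, at percentile 60.6. None of the 11 windows held TGAGTCA, whereas the 9 other loci had at least 1 window with it.

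The sequence just upstream of the Fos start site is shown because cyclic AMP and calcium signals reach Fos there through a CREB site. It is the RefSeq promoter entry (GRCm38.p6, chr12:85473640-85473889, plus strand) up to the start site, with matches to TGACG, the half-site of the cyclic AMP response element (CRE), in capitals.
Fos promoter: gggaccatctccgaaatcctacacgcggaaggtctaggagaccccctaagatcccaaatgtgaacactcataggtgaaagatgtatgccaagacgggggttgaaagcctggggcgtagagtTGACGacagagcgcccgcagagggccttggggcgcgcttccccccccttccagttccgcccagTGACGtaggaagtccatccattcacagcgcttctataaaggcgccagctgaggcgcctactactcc
The stretch held TGACG at 2 positions and neither TGACGTCA nor TGAGTCA. Over the 32851 RefSeq promoters, 17.8% held TGACG on either strand of the 250 bases before the start site, 1.55% held TGACGTCA and 4.46% TGAGTCA.

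The strongest distal windows of Fos differed little between the groups. The window at 18.5 kb upstream had 857 normalized reads in 4in1_GFP_OE and 754 in 4in1_Prox1_OE, and the one at 12.2 kb downstream of the start site, which holds a CArG box (the site of serum response factor), had 801 and 711. Their differences of -0.18 and -0.17 lay nearer to 0 than the median of all windows. At the downstream edge of the locus, 3 neighbouring windows went separate ways. The window at 23.9 kb was lower, at 367 and 150 reads (-1.29), the lowest of the stronger Fos windows, and its neighbour at 23.1 kb was little different, at 144 and 163 reads (0.18). The third, at 25.3 kb, was higher, at 15.8 and 85.6 reads (2.44), the largest difference in either direction at any of the loci. It is named here after its value was seen, since its level lay under the median of all windows.

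Fosb (ENSMUSG00000003545.3, chr7:19302696-19310051, minus strand) is the second Fos gene that growth factors induce at once. Its 13 windows had a median of -0.15, and 2 of them lay below the median of their decile. The strongest of its 3 promoter windows (chr7:19308605-19308805, in an intron) had 717 normalized reads in 4in1_GFP_OE and 647 in 4in1_Prox1_OE (-0.15). Its second promoter window, directly upstream, was nearly the same in both groups, at 465 and 460 reads. It is printed because it holds a CArG box and half-sites of the CRE, the elements through which serum and cyclic AMP act. The window (mm10, chr7:19310275-19310475, read on the minus strand) has these matches in capitals.
Fosb upstream window: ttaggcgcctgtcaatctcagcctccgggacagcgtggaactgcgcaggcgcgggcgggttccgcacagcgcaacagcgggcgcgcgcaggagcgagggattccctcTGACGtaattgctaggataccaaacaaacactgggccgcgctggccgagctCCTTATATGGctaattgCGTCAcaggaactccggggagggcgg
A CArG box was found in 4 of the member windows (3.42%) and in 1.13% of all windows. The 4 comprise this one, the Fos window at 12.2 kb and a pair at Junb, and their median difference was -0.12, beside -0.60 for all windows with the box. The 4 were stronger, with a median level of 9.39 against 6.75 (log2), and relative to the decile of level the medians were 0.15 and -0.14.

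The exception at Fosb was a distal window 6.9 kb upstream, with 495 reads in 4in1_GFP_OE and 171 in 4in1_Prox1_OE (-1.54). This put it at percentile 1.23 of the windows in its decile. It holds a single TGAGTCA, while another TGAGTCA window 10.2 kb downstream, at 198 and 177 reads, had a difference of -0.16. The highest Fosb window was the promoter of a neighbour, Rtn2, with 98.6 and 179 reads (0.86).

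Fosl1 (ENSMUSG00000024912.6, chr19:5447547-5455946, plus strand) encodes Fra-1, a Fos protein without the strong activation domain of Fos. The 11 windows had a median of -0.29, at percentile 48.5 among protein-coding genes. In its promoter the means were equal, with 221 normalized reads in each group, and the level was the lowest among the promoters of the 10 genes. Of the 4 upstream windows, the one at 2.4 kb had 631 and 342 reads (-0.88) and the TGAGTCA window at 17.6 kb had 682 and 321 (-1.09), while those at 14.2 kb (-0.19) and 22.6 kb (-0.32) lay above the median of all windows. A window in a coding exon of Ctsw, 19.6 kb downstream, was the lowest of the stronger ones, at 256 and 108 reads (-1.25). The highest, in a coding exon of Efemp2 at 32.8 kb, had 127 and 175 reads (0.46) and also holds TGAGTCA. Only 2 of the 11 windows had Fosl1 as the nearest protein-coding start site, so most of them lie closer to a neighbouring gene.

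Fosl2 (ENSMUSG00000029135.10, chr5:32135801-32157842, plus strand) encodes Fra-2, which is made in resting as well as stimulated fibroblasts. It had the lowest values of the family. The median of its 11 windows was -0.92, at percentile 3.81 among protein-coding genes, and 9 of the 11 lay below the median of their decile. The promoter (chr5:32135617-32135817) had 944 normalized reads in 4in1_GFP_OE, the highest level among the 10 promoters, and 580 in 4in1_Prox1_OE. This difference of -0.70 was also the lowest of the 10 and lay at percentile 6.65 of the strongest promoter windows of 15153 protein-coding genes.

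All 4 Fosl2 windows with TGAGTCA were lower by at least 1, and none of the other 7 was, where the shares over all windows were 40.8% with and 19.5% without the motif. Upstream, the window at 18.6 kb had 100 and 37.3 reads (-1.43), and the one at 12.0 kb, with 2 copies of the motif, had 162 and 47.0 (-1.79). The intronic window at 10.7 kb had 208 and 88.2 reads (-1.23). The farthest, 41.3 kb downstream and again with 2 copies, had 94.3 and 27.8 reads (-1.76). These 4 windows, chosen after their values were seen, lie on both sides of the gene and within it, and the highest of the stronger Fosl2 windows, near the end of the gene and without the motif, had 97.1 and 128 reads (0.40).

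The sequences around TGAGTCA in the TGAGTCA window with the lowest difference of each of 3 Fos family genes are given to show the site itself, with 30 bases on either side where the window allows and each match in capitals. They come from mm10, read on the strand with TGAGTCA, at chr5:32123757-32123823 for Fosl2 (plus), chr7:19316970-19317036 for Fosb (minus) and chr19:5430020-5430086 for Fosl1 (plus).
Fosl2: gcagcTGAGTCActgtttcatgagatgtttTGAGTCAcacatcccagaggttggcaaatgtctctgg
Fosb: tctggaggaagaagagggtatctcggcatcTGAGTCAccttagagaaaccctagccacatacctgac
Fosl1: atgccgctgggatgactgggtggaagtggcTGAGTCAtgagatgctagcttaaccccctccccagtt
The Fosl2 stretch carries both of its copies.

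In the Jun family, Jun (ENSMUSG00000052684.4, chr4:95049034-95052222, minus strand) encodes c-Jun, the principal partner of Fos and an activator of its own promoter. Its 9 windows had a median of -0.57, at percentile 19.8 among protein-coding genes. The promoter window (chr4:95052191-95052391), which lies within the noncoding gene Junos on the other strand, had 823 normalized reads in 4in1_GFP_OE and 600 in 4in1_Prox1_OE. The difference of -0.46 was second only to Fosl2 among the 10 promoters and lay at percentile 28.9 of its decile, while the window over the Jun coding exon, at 374 and 394 reads (0.08), did not share it.

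The Jun promoter is printed for the variant AP-1 site to which Jun and Atf2 dimers are known to bind. The RefSeq entry up to the start site (GRCm38.p6, chr4:95052223-95052472, minus strand) has its match to TGANNTCA in capitals.
Jun promoter: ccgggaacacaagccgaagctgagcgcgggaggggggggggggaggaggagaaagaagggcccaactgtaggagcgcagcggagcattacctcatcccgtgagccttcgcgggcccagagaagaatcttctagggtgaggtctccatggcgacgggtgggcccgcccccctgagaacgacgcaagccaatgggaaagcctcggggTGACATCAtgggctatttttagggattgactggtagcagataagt
TGANNTCA was found in the same 250 bases of 11.9% of RefSeq promoters. It was in 17 member windows (14.5%) and in 11.4% of all windows.

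Downstream of Jun, 4 windows in introns of the noncoding genes Gm12703 and Gm12694 had the lowest values of the family. The TGAGTCA window at 11.2 kb had 90.4 and 40.6 reads (-1.15), and the one at 16.5 kb had 294 and 110 (-1.42). The 2 windows beyond it, at 19.4 kb with 383 and 136 reads (-1.49) and at 26.1 kb with 406 and 126 (-1.69), hold no TGAGTCA. The last lay at percentile 2.69 of its decile. Among these windows, another at 14.1 kb had 215 and 145 reads (-0.57) and lay near the middle of its decile, at percentile 51.9. At 27.1 kb, beside the window at 26.1 kb, a weak window was higher, with 53.9 and 122 reads (1.18), so adjacent windows again differed in direction.

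Junb (ENSMUSG00000052837.6, chr8:84974484-84978718, minus strand) encodes a Jun protein that can also restrain c-Jun. No Junb window was lower or higher by 1 or more, and the median of its 14 windows was -0.19. Only 4 of the 14 had Junb as the nearest protein-coding start site. The promoter (chr8:84978647-84978847) had 773 normalized reads in 4in1_GFP_OE and 699 in 4in1_Prox1_OE (-0.15). Another window over the coding exon had 381 and 427 reads (0.16). The pair of windows with a CArG box, 1.4 kb upstream and 2.1 kb downstream of the start site, had 681 and 616 reads and 717 and 676 reads, so the strong windows around Junb had much the same level in both groups. The lowest, at 318 and 167 reads (-0.93), was a promoter window of Rnaseh2a that holds TGAGTCA, and the highest, at 258 and 368 reads (0.51), was a promoter window of Hook2.

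Jund (ENSMUSG00000071076.6, chr8:70698949-70700616, plus strand) encodes the Jun protein that is present in most cells without stimulation. Its 9 windows had the highest median of the 10 loci, -0.11, at percentile 79.0 among protein-coding genes. The promoter window just upstream of the start site had 833 normalized reads in 4in1_GFP_OE and 772 in 4in1_Prox1_OE (-0.11), at percentile 80.5 of its decile. It is printed because it holds the full CRE palindrome TGACGTCA, to which CREB and ATF proteins bind (mm10, chr8:70698697-70698897, plus strand, with matches to TGACG and TGANNTCA in capitals).
Jund promoter window: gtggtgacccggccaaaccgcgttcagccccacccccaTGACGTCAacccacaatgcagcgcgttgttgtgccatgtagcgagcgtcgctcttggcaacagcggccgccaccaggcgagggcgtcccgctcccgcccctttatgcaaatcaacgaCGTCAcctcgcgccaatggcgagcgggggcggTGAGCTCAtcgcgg
Of the member windows, 2 hold TGACGTCA (1.71%), against 0.595% of all windows, and both are promoter windows, at Jund and Maff. Their median difference was -0.13, and that of all windows with TGACGTCA was -0.22.

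Upstream of Jund, 4 intergenic windows had very unlike values. For the 2 farthest the nearest protein-coding start site is that of Lsm4. The farthest, at 16.6 kb, was a strong window with 802 reads in 4in1_GFP_OE and 400 in 4in1_Prox1_OE, just past the halved level. Next to it, at 14.4 kb, a window with 114 and 399 reads was higher by 1.81, and at 11.3 kb another with 35.6 and 166 reads was higher by 2.23. The fourth, at 8.9 kb, had 92.3 and 61.7 reads (-0.58). The first and second of these both hold a single TGAGTCA and had nearly the same mean in 4in1_Prox1_OE, 400 and 399 reads, while their means in 4in1_GFP_OE lay far apart. The sites are shown with 30 bases on either side where the window allows (mm10, chr8:70682301-70682367, minus, for the lower and chr8:70684479-70684545, plus, for the higher window).
Jund, lower window: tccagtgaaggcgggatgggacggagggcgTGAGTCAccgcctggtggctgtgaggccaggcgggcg
Jund, higher window: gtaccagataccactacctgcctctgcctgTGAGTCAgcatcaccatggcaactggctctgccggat
Both windows were taken as matches to TGAGTCA, so their cores are identical by choice.

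Of the partners, Atf3 (ENSMUSG00000026628.13, chr1:191170296-191218039, minus strand) encodes a stress-induced member of the ATF group that pairs with Jun proteins and often represses. Its 14 windows had a median of -0.58, at percentile 19.0 among protein-coding genes, and 6 of them hold TGAGTCA, the most of any locus. The promoter window (chr1:191183449-191183649), at the more downstream of its annotated start sites, had 844 normalized reads in 4in1_GFP_OE and 731 in 4in1_Prox1_OE (-0.21). Between the start sites, intronic windows were lower, at 269 and 116 reads for one with TGAGTCA (-1.21) and at 281 and 116 for one without (-1.28). The lowest of all was 28.8 kb downstream, at 131 and 41.7 reads (-1.66), and holds TGAGTCA. It is named after its value was seen, its level lying under the median of all windows. Another such window, in the promoter of the noncoding gene D730003I15Rik, was nearly the same in both groups, at 560 and 533 reads (-0.07). The highest of the stronger windows, 30.1 kb downstream, had 146 and 152 reads (0.06).

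Batf3 (ENSMUSG00000026630.9, chr1:191097847-191108945, plus strand) encodes a short leucine zipper protein best known from dendritic cells, which also binds DNA with Jun proteins. Its 13 windows ranged from -2.14 to 1.28 around a median of -0.15, at percentile 73.4 among protein-coding genes. Its promoter (chr1:191098322-191098522, over a coding exon) was the only one of the 10 with a higher mean with Prox1, at 295 normalized reads in 4in1_GFP_OE and 390 in 4in1_Prox1_OE. The difference of 0.40 lay at percentile 99.4 of its decile and at percentile 94.9 of the strongest promoter windows of protein-coding genes.

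Away from the Batf3 promoter, 9 of the 12 windows had a lower mean with Prox1, and 6 of all 13 lay below the median of their decile. The window 25.6 kb downstream, with 277 and 62.9 reads (-2.14), was the lowest of all 117 and lay at percentile 0.158 of its decile. The windows at 10.2 and 5.0 kb upstream had 78.1 and 28.8 reads (-1.44) and 156 and 69.6 reads (-1.16). All 3 hold TGAGTCA. The second lowest window of the locus, 34.7 kb downstream, had 97.8 and 33.4 reads (-1.55) and holds none, and the window in a Batf3 intron at 4.8 kb, which holds 2 copies, had 101 and 113 reads (0.16). The highest Batf3 window, in an intron of the neighbour Nsl1, had 35.8 and 87.1 reads (1.28) and no TGAGTCA.

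Maff (ENSMUSG00000042622.14, chr15:79346621-79359076, plus strand) encodes a small Maf protein, which lacks an activation domain and pairs with other leucine zipper proteins. The 12 windows had a median of -0.19, and 3 lay below the median of their decile. The promoter window (chr15:79347400-79347600) had 704 normalized reads in 4in1_GFP_OE and 632 in 4in1_Prox1_OE (-0.16). Neither of the Maff windows with TGAGTCA had a lower mean with Prox1, at 257 and 276 reads for the one 13.1 kb upstream (0.10) and at 218 and 348 for the one 20.6 kb downstream, in an intron of Tmem184b (0.67). The lowest windows, at 226 and 78.4 reads (-1.53) in an intron of Pla2g6 and at 256 and 105 reads (-1.28) in an intron of Tmem184b, hold none.

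The Maff promoter is printed for its full CRE, from the RefSeq entry up to the second of its 3 start sites (GRCm38.p6, chr15:79347270-79347519, plus strand), with the site in capitals.
Maff promoter: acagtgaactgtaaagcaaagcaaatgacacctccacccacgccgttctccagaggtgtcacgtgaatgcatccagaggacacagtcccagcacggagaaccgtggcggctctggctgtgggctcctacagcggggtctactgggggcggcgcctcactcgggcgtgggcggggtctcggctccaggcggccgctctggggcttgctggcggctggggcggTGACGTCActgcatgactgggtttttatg
The TGAGTCA sites of the partner genes and of Jun with the lowest difference, and of the Maff window with the highest, follow in the same way (mm10, chr1:191123923-191123989 plus for Batf3, chr1:191154476-191154542 minus for Atf3, chr4:95035660-95035726 plus for Jun and chr15:79368652-79368718 plus for Maff).
Batf3, -2.14: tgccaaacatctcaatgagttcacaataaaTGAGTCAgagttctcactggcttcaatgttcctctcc
Atf3, -1.66: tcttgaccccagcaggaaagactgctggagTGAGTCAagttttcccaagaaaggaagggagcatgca
Jun, -1.42: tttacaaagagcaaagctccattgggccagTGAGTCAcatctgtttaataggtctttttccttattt
Maff, 0.67: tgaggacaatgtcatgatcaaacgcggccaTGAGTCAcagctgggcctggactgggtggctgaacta

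Taken over the 10 genes, the promoters were strong and close to the table's other promoters. Every gene had a window within 1 kb of a start site, and the median difference over the strongest of these was -0.15, beside -0.19 over 15153 protein-coding genes. Of the 10, 9 had a lower value (90.0%), counting Fosl1, whose means were equal to 2 decimals, where 82.9% of the protein-coding promoters had a lower value. Batf3 was the exception. None reached -1 or 1, where 2.70% of those promoters were lower by at least 1 and 178 of the 15153 were higher by at least 1. In linear terms the 8 genes other than Fosl1 and Batf3 had between 649 and 944 normalized reads in 4in1_GFP_OE and between 561 and 772 in 4in1_Prox1_OE. Relative to the median of all windows, 2 of the 10, Fosl2 and Jun, had a lower value and 8 a higher one, where 16.7% of the protein-coding promoters had a lower one. The order of the levels cannot be tested without values per library.

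**Figure D2:**
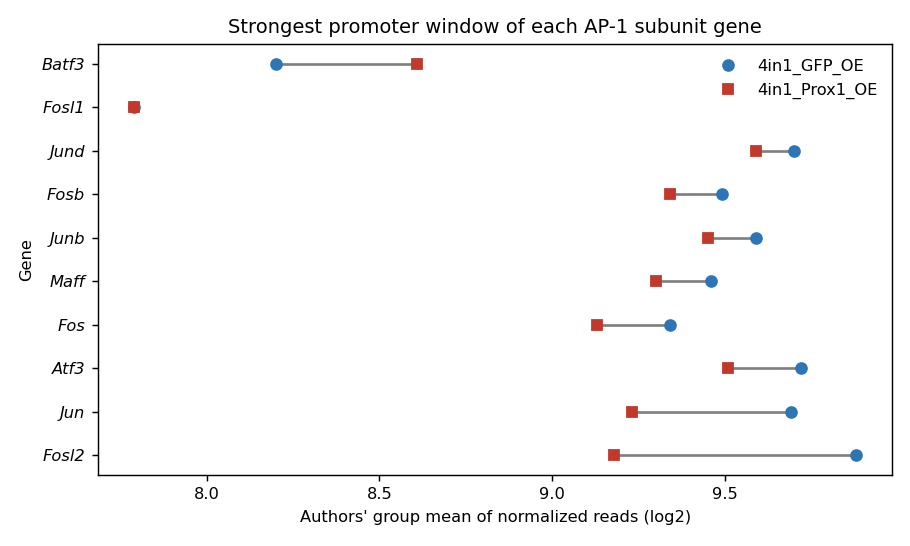
The strongest promoter window of each gene, with the authors' group mean in 4in1_GFP_OE (circles) and 4in1_Prox1_OE (squares) as log2 of normalized reads on the horizontal axis, sorted by the difference between them. Fosl2 (9.88 and 9.18) and Jun (9.69 and 9.23) had the widest gaps, the symbols of Fosl1 coincide, and Batf3 had its higher mean with Prox1. Gaps smaller than 0.42 are higher values relative to the median of all windows.

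Windows with the AP-1 site had a lower median than windows without it, although not every low window held the site. Of the 24 lower by at least 1, 15 held it (62.5%), against 38.5% of all windows lower by that much. TGAGTCA, searched on either strand, was as frequent in the member windows as in the table, at 27 of 117 (23.1%) and 23.0%. Of these 27, 15 were lower by at least 1, where 40.8% of all TGAGTCA windows were. Of the 90 without it, 9 were, where the share in the table was 19.5%, and these include the lowest windows of Jun, Maff and Fos. The medians were -1.09 with and -0.21 without the motif, a gap of -0.88, and over all windows they were -0.84 and -0.31, a gap of -0.53. Relative to the decile of level the gap was -0.72 at the AP-1 subunit loci and -0.43 in the table, and it was negative under either measure.

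The motif was rare in promoters, so the comparison was repeated in distal windows, those further than 1 kb from any start site. There were 83 of them at the loci, and 23 were lower by at least 1, where 26.7% of all distal windows were. The 24 with TGAGTCA had a median of -1.16 and quartiles of -1.43 and -0.31, and the 59 without it had a median of -0.24 and quartiles of -0.84 and -0.03. Corresponding medians over all distal windows were -0.85 and -0.37. Of the 34 promoter windows, 13 belonged to the 10 genes and 21 to their neighbours, and 1 was lower by at least 1, where 8.26% of all promoter windows were.

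Loci differed in this respect. In 7 of the 9 loci with the motif (77.8%), the windows with TGAGTCA had the lower median, as they did in 77.5% of protein-coding genes with both kinds of window. The medians were -1.60 against -0.80 at Fosl2 and -1.30 against -0.08 at Batf3. At Fosl1 the medians were -0.31 and -0.29, nearly the same. At Jund and Maff the windows with the motif had the higher median, 0.40 against -0.11 and 0.39 against -0.29, each from 2 windows. The medians with the motif at Fosl1, Jun and Junb also rest on 2 windows each. Both Jund windows and the upstream Maff window lie nearer to the start site of another gene, Lsm4 or Pla2g6. Taking for each gene the lowest window among those at or above the median level of the table, 5 of 10 held TGAGTCA, and 3 of the 10 highest did, where the shares over protein-coding genes were 36.6% and 12.8%. The windows of a locus share their cells and their libraries and are not replicates, and whether the motif has a part in these differences was not tested.

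**Figure D3:**
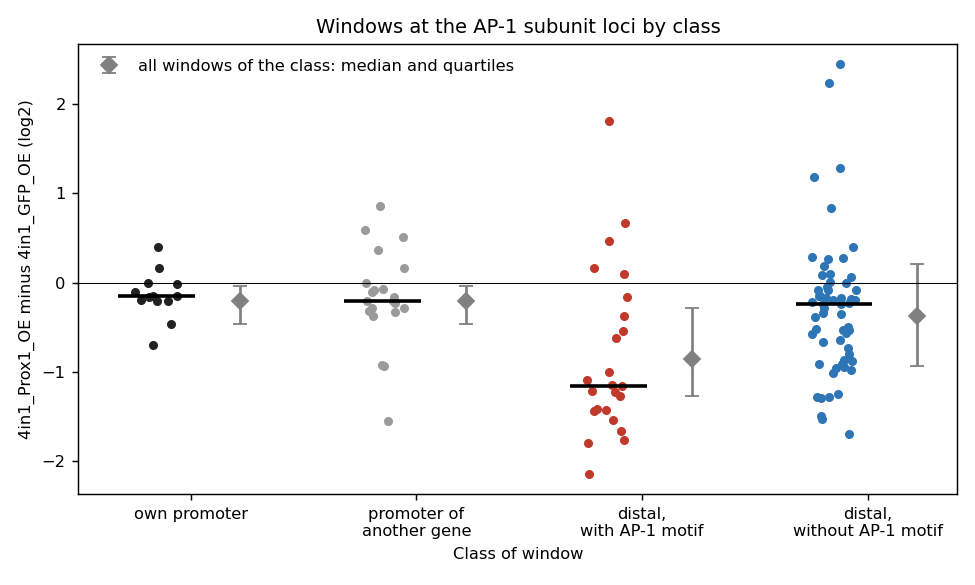
Difference (4in1_Prox1_OE minus 4in1_GFP_OE, log2 of the authors' group means) of each of the 117 windows at the AP-1 subunit loci by class, with a bar at the median of the members and a grey diamond with whiskers at the median and quartiles of all windows of the class (all promoters for both promoter classes). Distal windows with the AP-1 motif have the lowest median (-1.16), and their points run from -2.14 to 1.81. Horizontal scatter within a class carries no meaning.

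For the other motifs searched, the gap at the loci was smaller than that of TGAGTCA. The 17 windows with TGANNTCA had a median of -0.64, against -0.21 without it, beside medians of -0.52 and -0.41 in the table. Of the 17, 5 were lower by at least 1, as were 5621 of the 20144 such windows in the table. Those at Fosb (-1.54), Atf3 (-1.21) and Batf3 (-2.14) also hold TGAGTCA, and those at Fosl1 (-1.25) and Maff (-1.28) do not. The 15 windows with a CTCF motif, the binding site of an insulator protein (up to 1 mismatch), had a median of -0.08 and none was lower by at least 1, beside a median of -0.18 and a share of 5.51% over all such windows. TGACG without TGAGTCA was found in 20 windows with a median of -0.15, beside -0.24 in the table. The TEAD motif GGAATG was in 16 windows, with a median of -0.18 against -0.28 without it, whereas over all windows those with the motif had the lower median, -0.64 against -0.37. TGTGGT, the core bound by Runx proteins, was in 13 windows, with a median of -0.21 against -0.24, beside -0.47 and -0.41 in the table. The Prox1 motif was in none of the 117 windows and in 538 of the table (0.305%), whose median was -0.75 against -0.42 without it. At so low a share, its absence from 117 windows says little about Prox1 binding at these loci. Windows with TGAGTCA had a lower GC content than those without, at a median of 50.7% against 58.7%, and the part of GC content in the gap was not tested.

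The related genes looked up for comparison were listed with earlier results of these data known, and their strongest promoter windows are described in the same way. Over all 15153 protein-coding promoters, 2.70% were lower by at least 1 and 178 were higher by at least 1. Of 15 other AP-1 and leucine zipper genes, 13 had a promoter window, with a median difference of -0.22, and none was lower by at least 1. Batf, a relative of Batf3 in lymphocytes, was higher by 2.70, from a mean of 21.1 in 4in1_GFP_OE to 137 in 4in1_Prox1_OE. Its 21.1 reads were the lowest promoter mean in 4in1_GFP_OE of any gene in these lists. The regulators upstream of AP-1, such as the MAP kinases and serum response factor, had 14 promoter windows with a median of -0.20. None was past 1 in either direction, which is near the shares over all promoters. Of 23 promoters of other immediate early genes, the median was -0.22 and 1 was lower by at least 1, against 2.70% of protein-coding promoters. That one was Ier3, at 752 and 325 reads (-1.21).

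Textbook AP-1 target genes had lower promoter values. All 17 had a promoter window, with a median of -0.71, and 6 were lower by at least 1, against 2.70% of protein-coding promoters. These were Mmp10 (-1.54), Spp1 (-1.33), Ccl2 (-1.25), Mmp3 (-1.24), Cd44 (-1.09) and Mmp13 (-1.07), which encode matrix metalloproteinases, the matrix protein osteopontin, a chemokine and a hyaluronan receptor. Of the 17, Mmp9 was the only one with a higher value (0.09). The promoters of the target genes were also weaker than those of the AP-1 subunits, with a median of 442 against 744 reads in 4in1_GFP_OE. Relative to the decile of level the promoter medians were -0.45 for the targets and 0.11 for the subunits, and over all windows of the loci -0.14 and 0.09. Relative to the median of all windows, Mmp10 alone of the 6 stayed lower by at least 1. By the same measure the promoter median of the target list was still lower. The promoter medians of the AP-1 subunits, the other leucine zipper genes, the upstream regulators and the other immediate early genes turned higher. Of all their windows, 34.6% at the target loci were lower by at least 1, against 24.4% in the table, 18.2% at the other AP-1 and leucine zipper genes, 25.0% at the upstream regulators and 21.7% at the immediate early genes. Promoters of cell type markers had differences as well, with medians of -0.48 over 12 fibroblast, -0.68 over 3 endothelial, -1.11 over 2 leukocyte, 0.43 over 4 epithelial and -0.15 over 4 neuronal genes and -0.23 for the 1 hepatocyte marker with a window, and their part in the values of the target list was not tested.

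**Figure D4:**
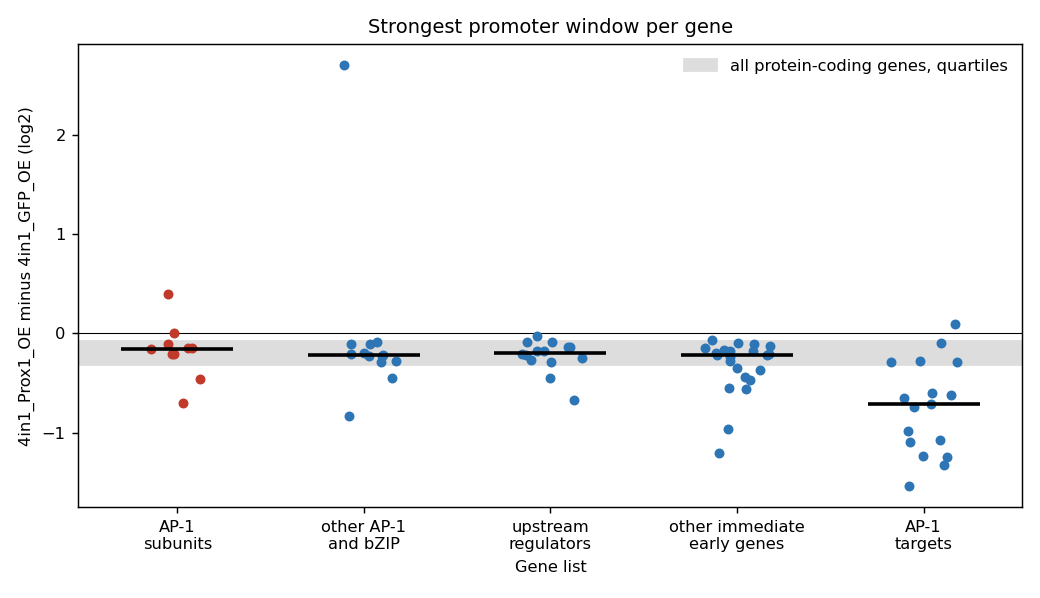
Difference (4in1_Prox1_OE minus 4in1_GFP_OE, log2 of the authors' group means) of the strongest promoter window of each gene in 5 lists, 1 point per gene with a bar at the median, over a grey band for the quartiles of all protein-coding genes (-0.32 to -0.08). The AP-1 subunits (median -0.15) lie mostly within or above the band, while most AP-1 target genes (median -0.71) lie under it, and a single point, Batf, stands at 2.70.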

How the data were processed

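The 12 libraries were grouped by their labels, and only the table on 4in1_GFP_OE and 4in1_Prox1_OE was used. Per the study's methods and processing notes, the authors used Trimmomatic 0.38 for trimming and Bowtie2 2.3.4.3 for alignment to mm10, recalibrated for Tn5 bias and filtered with SAMtools 1.10, Picard 2.18.16 and bedtools 2.27.1. Peaks are credited to MACS2 2.1.2 in the methods and to Genrich in the reporting summary, so the caller is uncertain, and whether libraries were pooled for it is not stated. DiffBind 3.4.11 then counted reads in windows (176672 of 201 bases, the widest 391). The deposited values used are log2 mean normalized read counts over both groups and in each group, pooled by the authors, for which the methods refer to the vignette of DiffBind and spell out no normalization setting. If they were scaled to whole libraries, an unequal fraction of reads inside peaks enters every value. The authors' comparison columns (p-value, log2 fold change and false discovery rate) and a pair of lists of called regions were not used.

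The difference of the group means was computed per window. Windows counted as lower or higher at a log2 difference of at least 1, as a description. Gene bodies, start sites and exons came from GENCODE M21 (basic set), sequence from GRCm38.p6 and promoter entries from RefSeq, which matched 9 of the 10 genes with 11 entries, all equal to the genome. A promoter window lies within 1 kb of a start site. Motifs were searched on both strands, and TGANNTCA includes TGACGTCA, which contains TGACG. The CTCF and Prox1 motifs were allowed 1 mismatch. The locus, motif and decile steps were tested on simulated data. Computations used scipy 1.17.1, pandas 2.3.3 and numpy 2.4.6 under Python 3.11.15, with matplotlib 3.10.9 for figures.

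For each of the 10 genes the text names the strongest promoter window and the windows with the lowest and highest difference among those at or above the median level (6.71). Genes of the other lists are named where the promoter is past 1. The genes, lists and tests were chosen with earlier results of these data known. Others shown were chosen after their values were seen. Alternatives were the placing of 0, a filter on low levels, the flank, the nearest gene, the threshold, the promoter width and the motif.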

Additional observations from a re-analysis of the deposited data

How the results depend on the processing

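No paired analysis was possible because only group means were used, and for the same reason leaving out single replicates was not run. With the median of all windows set to 0 (a shift of 0.42) or both groups scaled to equal totals (0.41), 12 windows were lower and 9 higher by at least 1 (24 and 5 as reported), and 40.2% had a lower value. Over all windows the shares were 8.64% or 8.80% lower, 13.4% or 13.3% higher and 50.0% or 50.2% with a lower value, beside 10.3% and 7.69% of the member windows past 1. The median over the loci was then 0.18 or 0.17, that of the strongest promoters 0.27 or 0.26, and 3 of the 10 genes kept a median below 0, namely Fosl2, Jun and Atf3 (33.0% of all genes with the median set to 0). Without the 25% of windows of lowest level, 20 were lower by at least 1 (18.3%, against 26.7% of all) and 3 higher (2.75%, against 4.14% of all). The median was then -0.23, against -0.49 over all windows. Among the 72 windows nearest to a member's start site 17 were lower (23.6%) and 3 higher (4.17%). With 5 kb on each side, 4 windows were lower (9.30%) and 0 higher by at least 1, and 86.0% had a lower value. With 50 kb, 44 were lower (21.3%) and 11 higher (5.31%). For these 3 choices the table's shares stay at 24.4% lower, 8.33% higher and 72.3% with a lower value. At a threshold of 0.5 the counts were 46 and 10 (39.3% and 8.55%, against 46.2% and 14.8% of all), and at 1.5 they were 8 and 3 (6.84% and 2.56%, against 6.35% and 4.50%). The gap between windows with and without TGAGTCA was negative under each alternative run for it, but with 5 kb on each side it was -0.42, beside -0.88 as reported, and under the other alternatives it lay between -1.03 and -0.72. Windows without the promoters of other genes, and distal windows alone, were added after the data were seen.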
